A study of Rattus norvegicus with 48 samples.

Results

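MicroRNA-124 was followed through 5 names of the deposited table, which were the mature strands miR-124-3p and miR-124-5p and the precursor hairpins mir-124-1, mir-124-2 and mir-124-3. They were taken by name out of 1063 listed names, 612 of them mature and 451 precursor, and all 5 were above 0 in enough libraries to be tested in both brain regions. Small RNA was sequenced from the whole amygdala [A] and the ventral striatum [V] of male and female Long Evans rats at 42 days of age, in 48 libraries, each from a pool of RNA. Dams had been injected with ethanol or with saline during gestation, and after weaning the offspring were housed with littermates (non-enriched) or with unfamiliar rats of untreated dams (socially enriched). This gave control non-enriched, control enriched, ethanol-exposed non-enriched and ethanol-exposed enriched rats, at 6 libraries of each in each region (3 female and 3 male pools). All of the rats, controls included, came from injected dams and were tested for social behavior before the tissue was taken. Because a library is a pool of 3 rats, p-values below measure the spread between pools and not between rats. Both regions were dissected from the same rats, so libraries of the amygdala and the ventral striatum are not independent of each other.

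MicroRNA-124 is a brain-enriched miRNA of neurons, switched on as progenitors become neurons and kept on in mature ones. The guide strand is the 3p arm, which is loaded into the silencing complex and holds down many transcripts of other cell types, among them the splicing repressor Ptbp1, while the 5p arm is the strand that is mostly degraded. The same mature 3p strand is made from several hairpins encoded at separate loci, and outside neurons the repressor REST keeps those genes low.

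The unit throughout is RPM as deposited, for which the reads of mature names and those of precursor names were each scaled to 1000000 in every library, so a level on the mature scale was never set against a level on the precursor scale. Recovered from the smallest step between values, depth ran from 363135 to 1370407 mature reads per library, with a median of 977826. The table lists miR-124-3p on 3 lines and miR-124-5p on 3 lines, which were summed by name.

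The libraries fell into a pair of sets that no label names, defined after the values were examined. The share of let-7a-2 among the let-7a precursors was 31.5% to 35.3% in 24 libraries (the low set) and 40.6% to 42.6% in the other 24 (the high set). Each treatment group of the amygdala held 4 high and 2 low libraries, and each group of the ventral striatum held 2 high and 4 low ones. The sets were therefore balanced over treatments but not over regions. The 8 low libraries of the amygdala were the 8 shallowest of all, with 363135 to 622123 mature reads, and the next had 669389. The region differences below are given within the sets as well.

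The 3p arm carried nearly all of the mature signal. Over 48 libraries miR-124-3p lay between 1476 and 3249 RPM with a median of 2297 RPM (mean 2311 ± 373 RPM, SD), and it ranked 52nd of 612 mature names by mean RPM. The 5p arm, at 9.64 to 48.9 RPM with a median of 27.8 RPM, ranked 253rd. In reads, this was 918 to 4184 for miR-124-3p and only 4 to 54 for miR-124-5p, so the 5p arm was measured far less precisely. Within groups of the same region, sex and treatment, the SD of log2(RPM + 1) was 0.23 for miR-124-3p, close to the median of 0.24 for the 40 mature names within 2-fold of its mean, and 0.54 for miR-124-5p. As these were pieces of tissue, fewer neurons and less miR-124 per neuron cannot be told apart anywhere below.

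On the precursor scale the 3 hairpins were at similar levels. The hairpin mir-124-1 lay between 848 and 1850 RPM with a median of 1384 RPM, mir-124-2 between 968 and 1983 RPM with a median of 1475 RPM, and mir-124-3 between 558 and 1772 RPM with a median of 1064 RPM. The ranges overlapped widely, and over all libraries mir-124-3 had a within-group SD of 0.38 on the log2 scale against 0.28 for mir-124-1 and 0.25 for mir-124-2. Within the sets they varied alike relative to their means, with 1215 ± 203, 1377 ± 211 and 1321 ± 225 RPM (SD, n = 24) for mir-124-1, mir-124-2 and mir-124-3 in the high set and 1471 ± 202, 1559 ± 234 and 908 ± 134 RPM in the low set.

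Ethanol effects were examined first in the amygdala of non-enriched rats, A N(EvC). Here miR-124-3p was 2179, 2432 and 3249 RPM (lowest, median and highest) in the 6 control libraries and 1476, 2402 and 2793 RPM in the 6 ethanol-exposed ones. The medians were close, the groups overlapped over most of their range, and the lower ethanol mean came from the female pools F1 (1703 RPM) and F2 (1476 RPM), which were below every control library. The mean was 2558 ± 388 RPM in controls and 2201 ± 502 RPM after ethanol (SD, n = 6 each), 13.9% lower, with an exact two-sided permutation p of 0.208. On the log2(RPM + 1) scale the change was −0.24 ± 0.14 (SE; 95% interval −0.52 to 0.048, limma with Benjamini-Hochberg adjusted p = 0.842). The hairpins and the 5p arm had the same sign, with −0.25 for mir-124-1, −0.24 for mir-124-2, −0.22 for mir-124-3 and −0.49 for miR-124-5p on that scale, and no adjusted p below 0.84. For miR-124-5p the control libraries had 25.8, 30.5 and 48.9 RPM and the ethanol-exposed ones 9.64, 28.9 and 41.4 RPM (lowest, median, highest), and for mir-124-1 the values were 1097, 1428 and 1661 RPM against 848, 1214 and 1577 RPM. Both overlapped widely. Within the high set miR-124-3p averaged 2631 RPM in 4 control and 2235 RPM in 4 ethanol-exposed libraries, and within the low set 2411 RPM and 2134 RPM in 2 and 2.

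Of the marker lists for this contrast, 0 of 12 neuron-enriched, 5 oligodendrocyte, 5 immune, 5 vascular, 3 red blood cell and 5 choroid plexus and ciliated cell miRNAs tested had an adjusted p under 0.05, and 1 neuron-enriched name had an unadjusted one. All 12 neuron-enriched names had a negative log2 change (median −0.24, highest −0.027), beside medians of −0.24 for the 5 miR-124 names and −0.083 for all names. The oligodendrocyte list summed to 5968 to 8684 RPM in the control libraries and to 14352 RPM in F1 and 12228 RPM in F2, the 2 ethanol libraries lowest in miR-124-3p, and to 4837 to 8382 RPM in the other 4. The 5 miRNAs listed for choroid plexus and ciliated cells summed to 3372 to 37636 RPM in the control non-enriched amygdala libraries and to 3763 to 136518 RPM in the ethanol-exposed non-enriched ones. The ethanol library F2, lowest in miR-124-3p, was the highest of all 48 in this sum, and M3, at 2374 RPM of miR-124-3p, was second with 120643 RPM. With F2 left out the log2 change of miR-124-3p was −0.16, and with both left out it was −0.14 (adjusted p = 1), a setting chosen after the values were seen. The part of these cells in the difference was not tested.

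In the amygdala of enriched rats, A S(EvC), miR-124-3p was level. The 6 control libraries had 2143, 2354 and 2899 RPM of miR-124-3p (lowest, median, highest) and the 6 ethanol-exposed ones 1861, 2590 and 3039 RPM. The groups overlapped, and the ethanol mean was 0.540% above the control mean (exact permutation p = 0.944, log2 change −0.0041 ± 0.14, SE, 95% interval −0.29 to 0.28). For miR-124-5p the 2 groups ran from 19.7 to 34.7 RPM and from 11.0 to 39.2 RPM, and for mir-124-3 from 959 to 1551 RPM and from 1031 to 1676 RPM, also without separation.

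The enrichment effects in the amygdala, A C(SvN) and A E(SvN), reuse these 4 groups. For miR-124-3p the log2 change with enrichment was −0.054 in controls and 0.18 ± 0.14 in ethanol-exposed rats (SE; 95% interval −0.11 to 0.47, adjusted p = 1). The difference between the ethanol effects in enriched and non-enriched rats was itself 0.23 ± 0.19 (SE; 95% interval −0.17 to 0.64, adjusted p = 1).

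In the ventral striatum the ethanol effect in non-enriched rats, V N(EvC), was close to 0. Control libraries had 1892, 2108 and 2385 RPM of miR-124-3p and ethanol-exposed ones 1820, 2205 and 2234 RPM (lowest, median, highest of 6). These were the tightest groups of the experiment for this name, with SDs of 180 and 159 RPM, and they overlapped almost completely. The log2 change was 0.015 ± 0.12 (SE; 95% interval −0.24 to 0.27, exact permutation p of the RPM means 0.840). The hairpin mir-124-3 had 821, 884 and 1394 RPM in these controls and 832, 975 and 1201 RPM after ethanol, and miR-124-5p 19.2, 28.6 and 31.3 RPM and 15.6, 26.02 and 39.5 RPM, overlapping as well.

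Enriched rats spread more widely in this region. With enrichment, control libraries of the ventral striatum had 1772, 2481 and 2882 RPM of miR-124-3p and ethanol-exposed ones 1699, 2084 and 2642 RPM. These ranges overlapped each other and those of the non-enriched groups. The enrichment effect in controls, V C(SvN), was 0.16 ± 0.12 on the log2 scale (SE; exact permutation p = 0.169), and the ethanol effect in enriched rats, V S(EvC), was −0.14 ± 0.12 (exact permutation p = 0.370). Their 95% intervals were −0.096 to 0.41 and −0.39 to 0.11. In ethanol-exposed rats enrichment, V E(SvN), gave 0.0032 ± 0.12 (exact permutation p = 0.898), and the interaction was −0.15 ± 0.17 (adjusted p = 1).

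Ordered by mean RPM, miR-124-3p was highest in control non-enriched amygdala (2558 RPM), followed by ethanol-exposed enriched (2468 RPM) and control enriched amygdala (2455 RPM), control enriched ventral striatum (2385 RPM), ethanol-exposed non-enriched amygdala (2201 RPM), and ethanol-exposed enriched (2165 RPM), ethanol-exposed non-enriched (2137 RPM) and control non-enriched ventral striatum (2117 RPM). Each neighbour in this order overlapped the next in range. The 3 amygdala groups at the top lay 1 SD or less from the control enriched ventral striatum.

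**Figure D1:**
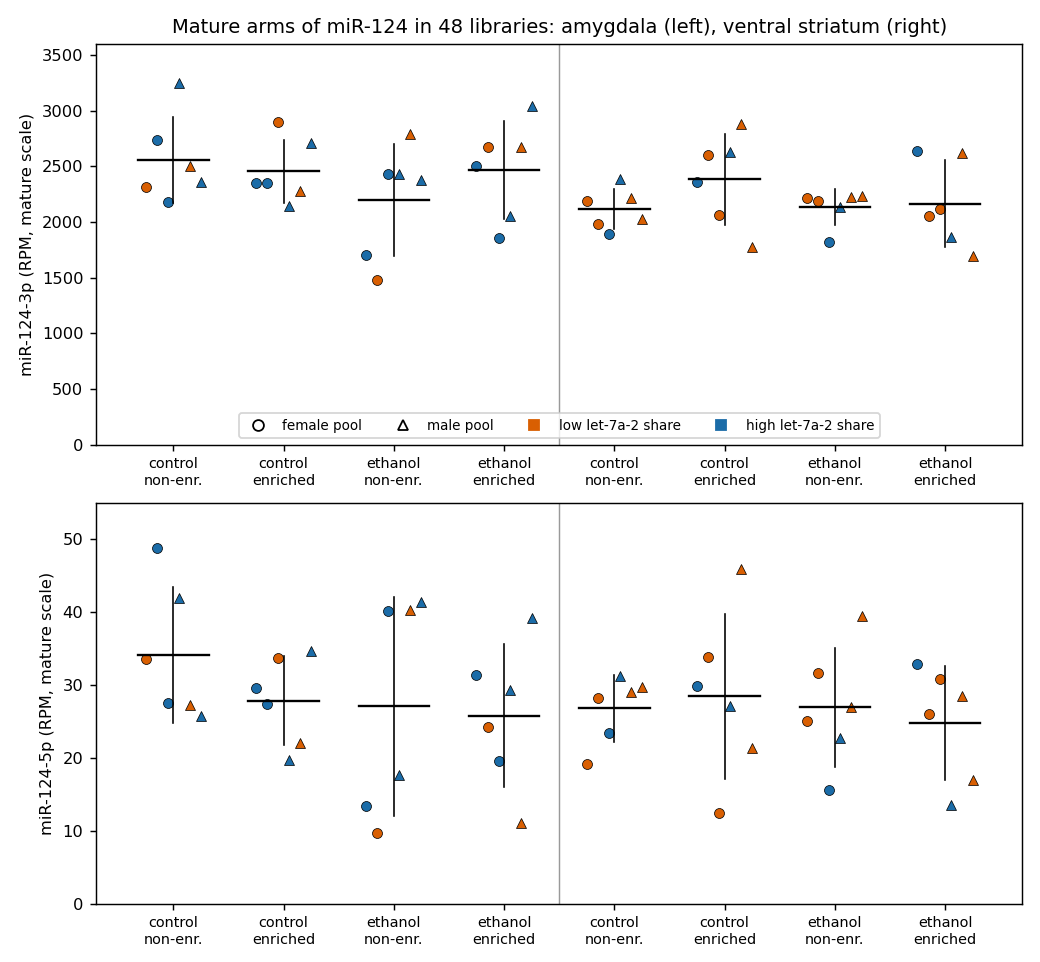
RPM of miR-124-3p (upper panel) and miR-124-5p (lower panel) in each of the 48 libraries by region and treatment. Circles are female and triangles male pools, colours mark the low and high sets, horizontal lines are means and vertical lines 1 SD. The 3p arm spans 1476 to 3249 RPM, every pair of groups overlaps, and the female ethanol-exposed non-enriched pools F1 and F2 of the amygdala are low in both arms.

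Within the sets, with 2 or 4 libraries a group and no test, the difference of the miR-124-3p means kept its sign between sets in 4 contrasts and not in the other 4. It was −24.3 RPM in the high and 88.3 RPM in the low set in A S(EvC), −242 and 176 RPM in A C(SvN), −160 and 111 RPM in V N(EvC), and 274 and −95.0 RPM in V E(SvN). The sets had the same sign in A N(EvC) as given above, in A E(SvN) (130 and 541 RPM), in V S(EvC) (−241 and −209 RPM) and in V C(SvN) (355 and 225 RPM).

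Over all 8 treatment contrasts, 0 of the 40 limma tests of the 5 members had an adjusted p under 0.05, and 0 had an unadjusted p under 0.05. By the exact permutation test, which with 6 against 6 libraries can reach 0.0022, the smallest of 56 p-values (the 5 members, the summed hairpins and the arm ratio) was 0.123 and 0 of 56 comparisons had groups that did not overlap. No share over all names is given for overlap, so that count is not read as particular to miR-124. Across every name tested the fit called 0% of 910 names in each contrast of the amygdala and 0% of 933 in each of the ventral striatum, so the members did not stand out from that background. At an unadjusted p under 0.05 it had 4.51% of the names in A N(EvC), 3.85% in A S(EvC) and 2.64% in both A C(SvN) and A E(SvN). The corresponding shares were 2.04% in V N(EvC), 2.25% in V S(EvC), 3.86% in V C(SvN) and 1.82% in V E(SvN). The median of the 5 members lay between −0.24 and 0.18 on the log2 scale over the contrasts, and the corresponding median of all names between −0.083 and 0.042.

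Ethanol by enrichment interactions gave 0 adjusted p under 0.05 among 10 tests (2 regions by 5 members) and 0 unadjusted ones, with 0% of the names called in either region and 3.85% (amygdala) and 2.57% (ventral striatum) of them at an unadjusted p under 0.05. Female and male pools did not separate either: miR-124-3p averaged 2235 ± 348 RPM in 24 female and 2387 ± 388 RPM in 24 male libraries (SD), a log2 difference of −0.094 ± 0.065 (SE; adjusted p = 1), with 0% of 942 names called and 3.93% at an unadjusted p under 0.05. Contrasts that differed between sexes or between regions were tested 60 times for the members, again with 0 below 0.05 before or after adjustment. One ventral striatal contrast, the enrichment effect in controls between the sexes, called 0.106% of the 942 names, and the other 11 called 0%. Unadjusted, the differences between sexes held 3.5%, 3.29%, 3.5% and 6.05% of the names for N(EvC), S(EvC), C(SvN) and E(SvN) in the amygdala and 2.02%, 2.76%, 1.7% and 3.4% in the ventral striatum. The differences between regions held 3.5%, 2.23%, 2.65% and 2.44% in the same order.

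Between the regions the levels were closer than the wide spread of single libraries. For miR-124-3p the amygdala ran from 1476 to 3249 RPM with a median of 2402 RPM and the ventral striatum from 1699 to 2882 RPM with a median of 2190 RPM. Of the 24 amygdala libraries, 3 lay above and 1 below every ventral striatal one, and in the other 20 the regions overlapped. The mean was 2421 ± 407 RPM against 2201 ± 306 RPM (SD, n = 24 each), 9.99% higher in the amygdala. The permutation test over 100000 resamples, which takes the libraries as independent, gave p = 0.041, adjusted over 7 measures to 0.142. Libraries with consecutive numbers form pairs of 1 amygdala and 1 ventral striatal library of the same sex and treatment. The amygdala was higher in 16 of these 24 pairs. Permutation within pairs gave an unadjusted p of 0.047 for consecutive numbers and 0.056 for equal replicate numbers. Limma gave 0.13 ± 0.065 on the log2 scale (SE; adjusted p = 0.133), in a comparison where 29.5% of 942 names were called, 8.49% higher and 21% lower in the amygdala, and 40.1% had an unadjusted p under 0.05. The value was 0.11 within the high set and 0.15 within the low set, neither below 0.05. After median-ratio rescaling, which moved the median of all names by 0.057, it was 0.19 and passed (adjusted p = 0.016). Other alternatives lowered it: the log2 value ran from 0.092 to 0.19 and the limma adjusted p from 0.016 to 0.430.

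The hairpin mir-124-3 showed the largest of the region differences among the members, and it depended on the sets. It ran from 558 to 1772 RPM with a median of 1144 RPM in the amygdala and from 739 to 1533 RPM with a median of 954 RPM in the ventral striatum. The amygdala was higher in 18 of 24 pairs of libraries with consecutive numbers, and the ranges overlapped. Limma gave 0.26 ± 0.11 (SE; p = 0.023, adjusted p = 0.070), and the permutation test of the means gave p = 0.0096 (adjusted 0.067). Both take the libraries as independent. Permutation within pairs gave an unadjusted p of 0.0074 for consecutive numbers and 0.0076 for equal replicate numbers, without regard to the sets. Within the high set, 16 amygdala libraries averaged 1344 ± 240 RPM and 8 ventral striatal ones 1273 ± 195 RPM (SD), a log2 difference of 0.071 ± 0.11 (SE). Within the low set, 8 averaged 960 ± 182 RPM and 16 averaged 882 ± 101 RPM, a difference of 0.10 ± 0.099. Thus the pooled value of mir-124-3 was over 2 times that within either set, and with a term for the sets it was 0.087 (adjusted p = 0.401). Other settings took the pooled value past the threshold, among them median-ratio rescaling (0.33, adjusted p = 0.016), a term for log2 mature reads (0.41, adjusted p = 0.0079) and leaving out the ethanol-exposed non-enriched amygdala pool F2 (0.30, adjusted p = 0.027). Within the amygdala the low libraries were also the shallowest, so the term for reads and the sets cannot be fully separated there.

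The other hairpins and the 5p arm had smaller pooled values. These were −0.022 ± 0.081 for mir-124-1, 0.012 ± 0.072 for mir-124-2 and 0.059 ± 0.15 for miR-124-5p (SE, log2 scale, adjusted p 0.824 to 0.939). Within the sets the 3 hairpins were alike, at 0.074, 0.079 and 0.071 in the high set and 0.087, 0.081 and 0.10 in the low set for mir-124-1, mir-124-2 and mir-124-3. The 5p arm turned sign between the sets, from 0.28 ± 0.22 to −0.21 ± 0.25 (SE), with adjusted p of 0.474 and 0.593. The sum of the 3 hairpins, which the sets did not divide, averaged 4032 ± 676 RPM in the amygdala and 3818 ± 486 RPM in the ventral striatum (SD, n = 24, permutation p = 0.216). Within the sets the sums averaged 3984 ± 672 RPM against 3768 ± 566 RPM (high, 16 and 8 libraries, permutation p = 0.443) and 4126 ± 720 RPM against 3843 ± 458 RPM (low, 8 and 16 libraries, permutation p = 0.250).

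**Figure D2:**
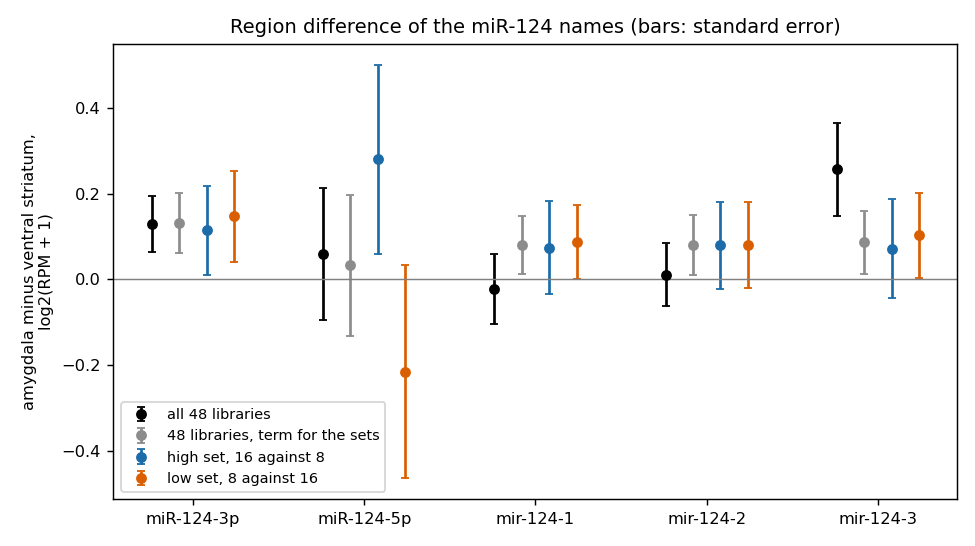
Amygdala minus ventral striatum on the log2(RPM + 1) scale for each of the 5 names, from all 48 libraries, with a term for the sets, and within the high and the low set. Bars are standard errors. The pooled value of mir-124-3 (0.26) is above its values within the sets (0.071 and 0.10), while miR-124-3p is between 0.11 and 0.15 in every fit drawn.

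How the precursor signal was divided among the 3 hairpins was the pattern in which the sets differed most plainly. The hairpin mir-124-3 took 32.1% to 35.1% of the summed mir-124 precursor RPM in the 24 high libraries and 21.5% to 25.1% in the 24 low ones. The shares of mir-124-1 were 29.5% to 32.3% against 35.7% to 40.1%, and those of mir-124-2 were 33.96% to 36.2% against 38.0% to 41.3%. For each hairpin the ranges of the sets did not meet, in either region. Inside a set the shares barely moved, with SDs of 0.61 to 0.95 percentage points, with every treatment group, both sexes and both regions inside these ranges.

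In level, low against high libraries within regions differed by 0.31 ± 0.070 for mir-124-1 (SE, log2 scale, limma adjusted p = 0.0032), 0.21 ± 0.072 for mir-124-2 (adjusted p = 0.079) and −0.51 ± 0.077 for mir-124-3 (adjusted p = 1.3e-05). The call covered 2 of 3 hairpins, beside 11.3% of the 423 precursor names tested. The sets were defined in these same libraries by how let-7a precursor signal was divided, so these p-values are descriptive. The mature arms did not follow, since miR-124-3p differed by 0.0038 ± 0.075 and miR-124-5p by −0.078 ± 0.17, where 5.2% of 519 mature names were called. The summed hairpins averaged 3912 ± 634 RPM in the high and 3937 ± 560 RPM in the low set (SD, n = 24 each). The 3 lines that carry miR-124-3p divided in the same way: the line that varied most closely with mir-124-3 held 33.03% ± 1.25 of the name in the high and 22.8% ± 1.65 in the low set (SD), while the sum over lines was level.

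Other miRNAs encoded at several loci split over the same libraries. Among 25 families with numbered copies in the table, let-7a defined the sets, and of the 23 families other than let-7a and mir-124, 13 had copies whose shares did not overlap between the sets. For mir-9a-1, a hairpin of another neural miRNA with 3 copies, the mean share was 34.3% in the low and 22.6% in the high set. For mir-181a-2, of the abundant miR-181 family, it was 58.2% and 66.03%. Numbered copies of one miRNA share the same main mature strand, so its reads can be assigned to any copy, and how the authors divided such reads is not given in the sources used here. Levels of single mir-124 hairpins are therefore uncertain, and the name summed over lines or over hairpins is the firmer measure.

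**Figure D3:**
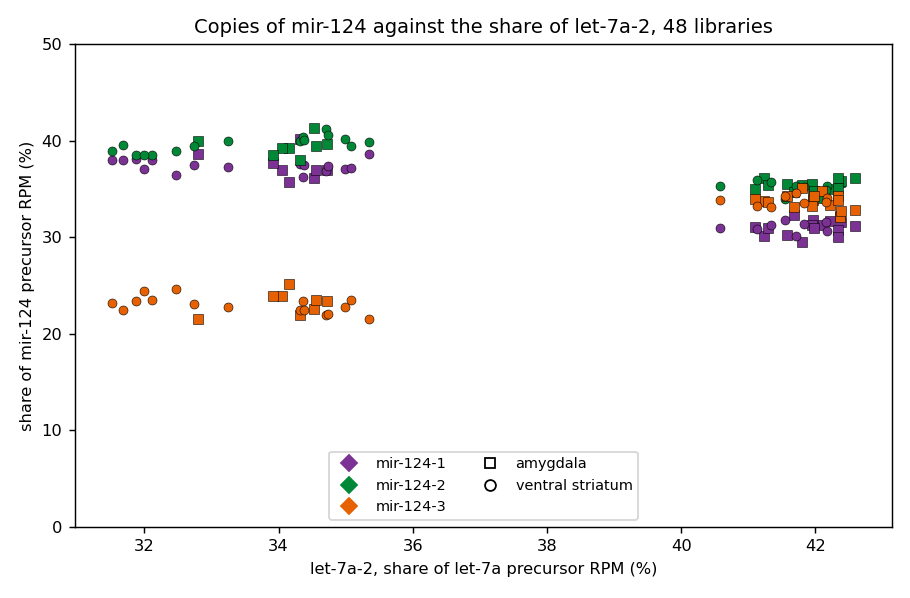
Share of each mir-124 hairpin in the summed mir-124 precursor RPM (vertical axis, percent) against the share of let-7a-2 in the let-7a precursors (horizontal axis, percent) in 48 libraries. Squares are amygdala and circles ventral striatum. In the left cluster of 24 libraries mir-124-3 lies at 21.5% to 25.1%, and in the right cluster at 32.1% to 35.1%, with both regions in both clusters.

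The ratio of the arms was strongly in favor of miR-124-3p in every library. It ran from 56.04 to 243, with a median of 80.6, and the mean log2 ratio of 6.39 placed miR-124 5th of 64 miRNAs with both arms at 10 RPM or more when ordered by excess of the 3p arm. In 28 of those 64 the 3p arm was the higher. The highest ratio, 243 in the ethanol-exposed enriched amygdala pool M2, rested on 4 reads of miR-124-5p, for which an exact 95% Poisson interval gives a ratio of 94.8 to 891, counting error only. The lowest, 56.04 in the control non-enriched amygdala pool F2, rested on 48 reads. Counting alone gives a median SD of 0.28 for the log2 ratio of a library, and the SD within groups was 0.42.

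By group the medians of the ratio were 78.4 in control non-enriched, 85.9 in control enriched, 98.0 in ethanol-exposed non-enriched and 87.6 in ethanol-exposed enriched amygdala, and 76.3, 80.8, 85.4 and 86.2 in the ventral striatum in the same order. All of the groups overlapped. In A N(EvC) the log2 ratio changed by 0.25 ± 0.27 (SE; 95% interval −0.30 to 0.81, limma adjusted p = 0.992), and the smallest exact permutation p among the ratio's 8 contrasts was 0.123, in A C(SvN). Over 10 treatment and interaction tests 0 passed an adjusted or an unadjusted 0.05, where 0% of 64 arm pairs were called. The regions differed by 0.071 ± 0.12 (adjusted p = 0.758) in a comparison that called 25% of the arm pairs, and the sexes by −0.018 ± 0.12 (0% called). Within the sets the region value of the ratio was −0.17 in the high and 0.36 in the low set, with permutation p of 0.260 and 0.064. The 8 amygdala libraries of the low set had 4 to 16 reads of miR-124-5p each.

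**Figure D4:**
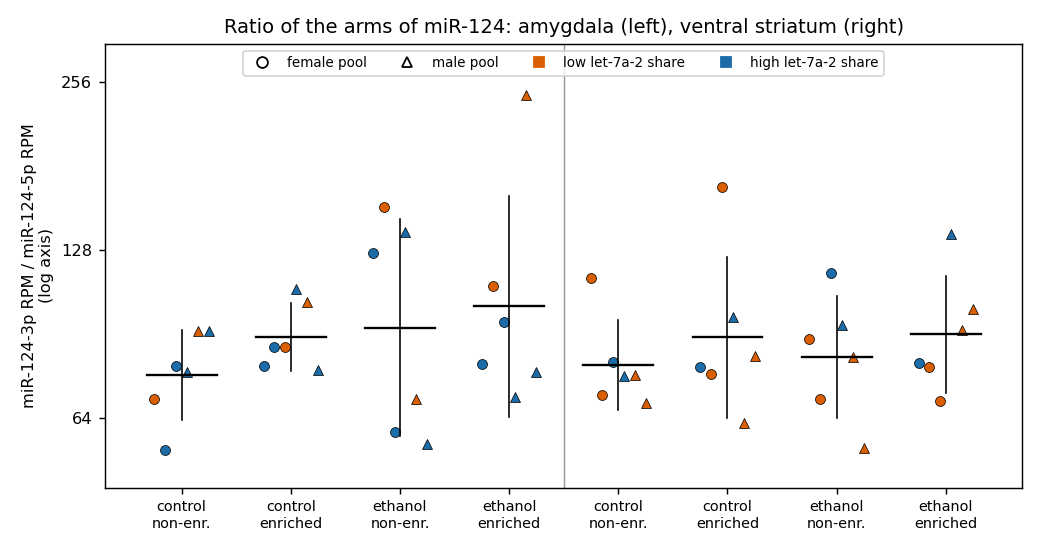
Ratio of miR-124-3p to miR-124-5p RPM in each library on a log axis, by region and treatment. Circles are female and triangles male pools, colours mark the sets, horizontal lines are geometric means and vertical lines 1 SD of the log2 ratio. All 48 ratios lie between 56.04 and 243, and the highest rests on 4 reads of the 5p arm.

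Reads assigned to the hairpins exceeded those assigned to the mature strands. By the recovered reads, miR-124-3p and miR-124-5p together had a mean of 2147 reads per library and the 3 hairpins 4210, so that the mature names held 46.1% to 55.4% as many reads over the 48 libraries. Over all names the mature total was 85.8% of the precursor total, and the median of 180 miRNAs matched by name was 84.6%, with 52 below miR-124. Among neuronal miRNAs the same percentage was 54.9% for miR-128 and 99.4% for miR-9a. The sum of the hairpins nevertheless varied with the 3p arm, with a Pearson r of 0.97 over 48 libraries for log2 deviations from group means, although both come from the same reads. Between hairpins that r was 0.96 for mir-124-1 with mir-124-2 and −0.0094 for mir-124-1 with mir-124-3 when the sets were pooled. Within the sets, mir-124-1 with mir-124-3 had an r of 0.98 in the 24 high and 0.91 in the 24 low libraries (deviations from means of region and treatment), so the hairpins varied together there.

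Other mature names varied with miR-124-3p from library to library. Of 297 mature names with a mean of at least 10 RPM in both regions, the 5 with the highest Pearson r over 48 libraries were miR-488-3p (0.86), miR-29a-3p (0.76), miR-128-3p (0.75), miR-137-3p (0.74) and miR-132-5p (0.70), beside a median of 0.11 over all 297. By deviations from the group means they were miR-488-3p (0.88), miR-29a-3p (0.86), miR-138-5p (0.83), miR-212-3p (0.75) and miR-137-3p (0.73), beside a median of 0.095. Of the 12 names on the neuron-enriched list, miR-128-3p and miR-137-3p are among the first 5, and miR-138-5p, miR-212-3p and miR-137-3p among the second. These miRNAs share a library, a depth and a fixed total with miR-124-3p, so the values are descriptive.

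Lists of cell type markers were set against miR-124-3p in the same way. Of 12 other neuron-enriched miRNAs, 11 had a positive r with miR-124-3p over 48 libraries (median 0.51) and 1, miR-433-3p, was at −0.17. All 5 oligodendrocyte miRNAs were negative, with a median of −0.69 and the lowest at −0.75 for miR-219a-2-3p, a miRNA of maturing oligodendrocytes. The log2 sum of the neuron-enriched list had an r of 0.83 with log2 miR-124-3p in the 24 amygdala and 0.81 in the 24 ventral striatal libraries, and that of the oligodendrocyte list −0.69 and −0.70. For choroid plexus and ciliated cells the values were −0.67 and −0.46. The microglia and immune list had −0.31 to 0.17, the vascular list 0.22 to 0.27 and the red blood cell list 0.017 to 0.16. The red blood cell list had 3 of its 4 members in the table and summed to 8.96 to 56.9 RPM, and no listed member of any list was at 0 in all libraries of a region.

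Between the regions the neuron-enriched list had no shared direction, with 2 of 12 members higher and 4 lower in the amygdala at an adjusted p under 0.05. Of all 942 names tested, 8.49% were higher and 21% lower in the amygdala by the same criterion. The median log2 difference of the neuron-enriched list was −0.22, beside −0.082 for all names and 0.13 for miR-124-3p. The oligodendrocyte list had 0 of 5 higher and 3 lower (median −0.44), summing to 4837 to 15975 RPM in the amygdala and 6414 to 16262 RPM in the ventral striatum. The choroid plexus and ciliated cell list had 2 of 5 higher and 0 lower (median 1.13), with 3372 to 136518 RPM in the amygdala and 4046 to 11411 RPM in the ventral striatum. The vascular list had 0 of 5 higher and 1 lower, and the immune list (5 of 6 tested) and red blood cell list (3 tested) had 0 in either direction. Within the high set, where 11.9% of 942 names were called, the neuron-enriched list had 2 higher and 1 lower (median −0.18), the oligodendrocyte list 0 (−0.43), the choroid plexus and ciliated cell list 0 (1.33), the vascular list 1 lower, the immune list 1 higher and the red blood cell list 0. Within the low set, where 23.8% were called, these were 1 higher and 3 lower (−0.19), 3 lower (−0.49), 1 higher (0.86), and 0 in the other 3 lists. The part of these cells in the region value of miR-124-3p was not tested.

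**Figure D5:**
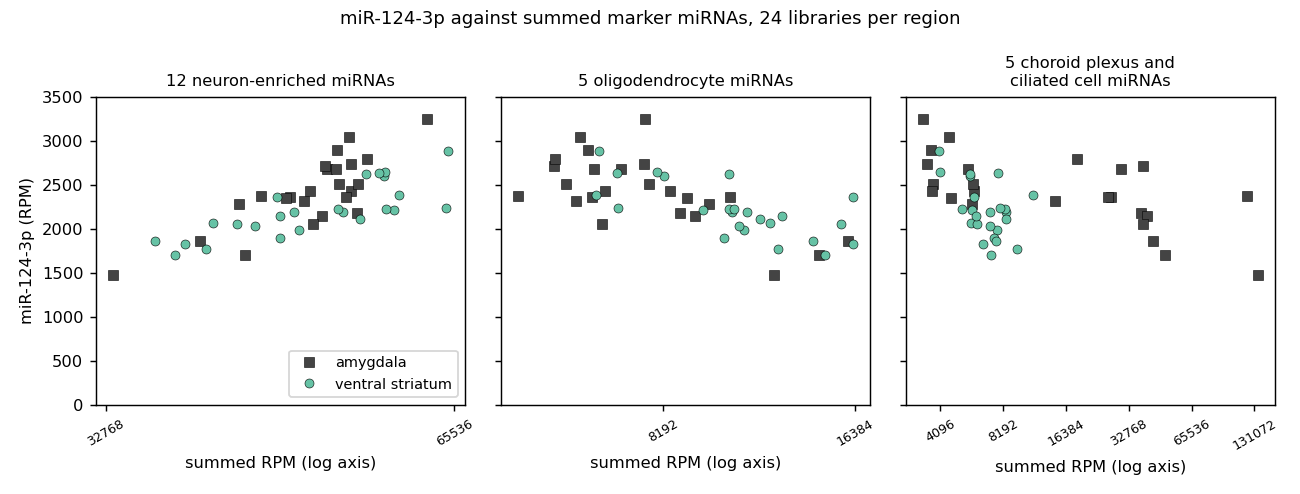
RPM of miR-124-3p (vertical axis) against the summed RPM of 3 marker lists (log axes) in the 24 amygdala and 24 ventral striatal libraries. miR-124-3p is higher where the 12 neuron-enriched miRNAs are high and lower where the 5 oligodendrocyte miRNAs are high, in both regions, and the amygdala library lowest in miR-124-3p (1476 RPM) has the highest choroid plexus and ciliated cell sum (136518 RPM).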

How the data were processed

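The authors trimmed low-quality bases, aligned reads to Rn5 with Bowtie in Partek Flow, quantified them against miRBase precursors and mature miRNAs, and deposited a signal in RPM per name and library. How reads matching several names were divided is not given in the sources used here. Mature and precursor values each add up to 1000000 per library, and lines sharing a name (122 lines, 56 names) were summed. Steps between values gave reads: 92.5% to 99.5% of low mature and 86.2% to 92.2% of low precursor values were whole within 0.02, so no count test was used. Intervals on reads cover counting error only.

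A name entered the tests where at least 6 of a region's 24 libraries were above 0 RPM. Its log2(RPM + 1) values were fitted with limma 3.58.1 (eBayes with trend, R 4.3.3), with 8 cells of sex and treatment per region, or 16 cells over 48 libraries for region and sex. Fold changes of low names are understated on this scale. P-values were two-sided and Benjamini-Hochberg adjusted over every name tested, or over 64 arm pairs for the arm ratio. Permutation tests of RPM means were exact (924 splits) or used 100000 resamples (Python 3.11.15, numpy 2.4.6, pandas 2.3.3, scipy 1.17.1). Named were all 5 members, the 5 names most like miR-124-3p by each measure, and lists of cell type markers as counts, while single marker names, the copies of other families and the comparison miRNAs for mature against hairpin reads were chosen after their values were seen. Members and lists were chosen with earlier results of these data known. Names sharing the seed of miR-124 and all sequences were not analysed here. The limma fit was tested on simulated data with planted changes in A N(EvC), larger than any change of the members.

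Alternatives were pseudocounts of 0.1 and 10, other filters, median-ratio rescaling, mature or precursor names alone, unlogged RPM, the replicate number as a block, consecutive library numbers as a random block, only the libraries compared, and each library left out. A term for the sets, fits, marker counts and correlations within them, a term for log2 mature reads, and leaving out 2 libraries high in choroid plexus markers were added after the data were seen.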

Additional observations from a re-analysis of the deposited data

Results flagged for a closer look

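In 64 groups of 6 libraries (8 quantities of miR-124 in 8 groups of region and treatment), 4 held a library far from the other 5 by Dixon's criterion at 95%, where chance gives about 1 in 20 groups. All 4 were in the ventral striatum. In control non-enriched rats mir-124-2 was 1174 RPM in the female pool F3, with the other 5 at 1429 to 1507 RPM, and the log2 ratio of the arms was 6.76 in the female pool F1, with the others at 6.05 to 6.28. In ethanol-exposed non-enriched rats miR-124-3p was 1820 RPM in the female pool F3, with the others at 2138 to 2234 RPM. In ethanol-exposed enriched rats mir-124-3 was 1533 RPM in the female pool F1, with the others at 739 to 1032 RPM. The pools F3, F3 and F1 of the hairpin and miR-124-3p values belong to the high set of libraries, and what set them apart was not tested.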

How the results depend on the processing

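Of the alternatives, 757 values kept direction and side of the threshold, 20 changed sign and 5 passed the threshold where the reported value did not. No alternative brought a treatment, interaction or sex result of a member past it. The region value of mir-124-3 passed with a mean of at least 10 RPM (0.26, adjusted p = 0.048), after median-ratio rescaling (0.33), with a term for log2 mature reads (0.41) and without the 2 libraries highest in choroid plexus markers (0.30), and that of miR-124-3p passed after median-ratio rescaling (0.19). With each library left out the region value of mir-124-3 was 0.21 to 0.30, and it passed (adjusted p 0.027 to 0.047) without F1 of ethanol-exposed enriched, M1 of control non-enriched or M1 of control enriched ventral striatum, or F1 or M2 of control non-enriched or F2 of ethanol-exposed non-enriched amygdala. The causes were not tested. With the replicate number as a block the region value of miR-124-3p was 0.13 (adjusted p = 0.131), and no call of a member changed. Over all 942 names the region calls went from 278 to 289. Deviations of equally numbered libraries had median correlations of −0.0037 (amygdala, 7 of 24 pairs over 0.1) and 0.094 (ventral striatum, 12 of 24). Among male pools the number went with the set. In every treatment group M1 was in the high and M2 in the low set, while M3 was high in the amygdala and low in the ventral striatum. These correlations therefore cannot settle whether numbers pair libraries. Arms both at 100 RPM or more leave miR-124 out, so that alternative gave no value, and the interaction already uses only its own libraries.

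Small values that had not passed changed sign as follows. Median-ratio rescaling gave 0.024 for miR-124-3p in A S(EvC), −0.022 for miR-124-5p in A E(SvN), 0.0028 for mir-124-1 and 0.014 for mir-124-2 in V E(SvN), and 0.054 for mir-124-1 between regions. A pseudocount of 10 gave 0.013 for the arm ratio in the amygdala interaction, −0.017 for it in V S(EvC) and 0.017 for miR-124-5p in V C(SvN). The term for reads gave −0.019 for miR-124-3p in V E(SvN), 0.042 for miR-124-5p in V C(SvN), and −0.0021 in V N(EvC) and −0.094 between regions for mir-124-2. The term for the sets gave 0.080 for mir-124-1 between regions, and leaving out the 2 choroid-rich libraries gave −0.054 for miR-124-5p in A E(SvN). On unlogged RPM the differences were 13.3 RPM for miR-124-3p in A S(EvC), −1.28 RPM for miR-124-5p in A E(SvN), 1.64 RPM in V C(SvN) and 0.124 RPM in V N(EvC), and in V N(EvC) 10.7 RPM for mir-124-1 and −1.05 RPM for mir-124-3.

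Leaving out each library in turn, these log2 values crossed 0. For miR-124-3p they ran from −0.10 to 0.016 in A C(SvN), −0.067 to 0.075 in A S(EvC), −0.090 to 0.066 in V E(SvN) and −0.016 to 0.061 in V N(EvC). For miR-124-5p they ran from −0.16 to 0.33 in A E(SvN), −0.36 to 0.080 in A S(EvC), −0.15 to 0.21 in V C(SvN), −0.14 to 0.11 in V N(EvC), −0.34 to 0.024 in the ventral striatal interaction and −0.014 to 0.12 between regions. For mir-124-1 they ran from −0.13 to 0.045 in A C(SvN), −0.14 to 0.075 in A S(EvC), −0.13 to 0.066 in V E(SvN), −0.073 to 0.10 in V N(EvC) and −0.048 to 0.0054 between regions. For mir-124-2 they ran from −0.089 to 0.050 in A C(SvN), −0.14 to 0.047 in A S(EvC), −0.11 to 0.055 in V E(SvN), −0.048 to 0.092 in V N(EvC) and −0.014 to 0.039 between regions. For mir-124-3 they ran from −0.18 to 0.050 in A C(SvN), −0.082 to 0.12 in A S(EvC), −0.030 to 0.22 in V C(SvN), −0.18 to 0.054 in V E(SvN), −0.059 to 0.13 in V N(EvC) and −0.27 to 0.0079 in V S(EvC). For the arm ratio they ran from −0.14 to 0.32 in A E(SvN), −0.35 to 0.10 and −0.13 to 0.14 in the amygdala and ventral striatal interactions, −0.10 to 0.33 in A S(EvC), −0.013 to 0.25 in V C(SvN), −0.046 to 0.15 in V N(EvC), −0.074 to 0.19 in V S(EvC) and −0.060 to 0.051 between sexes. Without F3 of the ethanol-exposed non-enriched amygdala, A N(EvC) of miR-124-3p was −0.34, the lowest of its range, and without F2 it was −0.16, the highest.

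Depth limits the 5p arm most, since a library held as few as 4 of its reads, and 6 pools a group leave a 95% interval of about 0.29 either side of a treatment change of miR-124-3p in the amygdala.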
